A study of Homo sapiens with 6 samples.

Results

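SAMD9, SAMD9L, DDX60, DDX60L, XAF1, CMPK2, EPSTI1, EIF2AK2, PLSCR1 and SAMHD1 are genes of the antiviral response that act inside the cell. They were picked by symbol from the deposited tables, and each symbol matched 1 row, so that all 10 were found among 29889 genes with counts and all 10 were among the 15847 genes tested. The cells were A549, a human cell line derived from non-small cell lung cancer. CELF6-OE cells were transfected with a pIRES-hrGFP-1a plasmid carrying CELF6, an RNA-binding protein, and Control cells with the empty plasmid, so both groups received plasmid DNA by lipofection. Each group had 3 biological replicates, harvested 48 h after transfection, and polyadenylated RNA was sequenced. Expression was transient and untransfected cells are not among the samples, and the fraction of cells that took up the plasmid is not given. The comparison asks how the RNA level of these genes differed after CELF6 over-expression.

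Interferons are secreted proteins that cells release when they detect foreign nucleic acid. They bind receptors on the same and on neighbouring cells, and the STAT and IRF transcription factors then switch on a large set of interferon-stimulated genes, often through repeats of the letters GAAA in the promoter, known as the interferon-stimulated response element. The genes described here are among those targets, and their proteins act on different steps of infection. EIF2AK2 encodes PKR, the kinase that binds double-stranded RNA and stops translation by phosphorylating eIF2-alpha. SAMD9 and SAMD9L are paralogs that restrict poxviruses and restrain protein synthesis and cell growth. DDX60 and DDX60L are paralogous DExD/H-box helicases related to the SKI2 helicase of RNA decay. SAMHD1 hydrolyses deoxynucleotides, CMPK2 is a mitochondrial kinase for UMP and CMP, XAF1 binds the apoptosis inhibitor XIAP, PLSCR1 is a membrane protein of the phospholipid scramblase family, and EPSTI1 is an interferon-induced protein first described in breast cancer.

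Promoter sequences from RefSeq (GRCh38.p14, 250 bases before to 50 bases after each start site) were found for all 10 genes, in 14 windows. GAAANNGAAA and the shorter GAAANGAAA were searched on both strands. One or the other was present in 9 of these 14 windows, which belong to 8 of the 10 genes, and in 6.4% of 35116 promoter windows of all genes. GAAANNGAAA alone was present in 3.57% of all windows and in those of 6 of the 10 genes, SAMD9, DDX60, DDX60L, EPSTI1, EIF2AK2 and PLSCR1. CMPK2 and XAF1 held GAAANGAAA only, and the windows of SAMD9L and SAMHD1 held neither run of letters. A gene with several windows has more chances of a match, and a match is a description of the sequence and not a binding site. The windows of PLSCR1 overlap and hold the same matches, so the 9 windows include that stretch in duplicate. The stretches that follow, all on the minus strand, are shown because they hold both helicase paralogs and genes with large and with small changes, and because their matches lie before the start site. They are chr7:93118086-93118140 for SAMD9, chr4:168318776-168318860 for DDX60, chr4:168480513-168480592 for DDX60L, chr13:42992262-42992311 for EPSTI1 and chr3:146544624-146544706 for PLSCR1, written 5′ to 3′ with the matches in capitals.
SAMD9: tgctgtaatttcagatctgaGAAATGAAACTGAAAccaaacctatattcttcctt
DDX60: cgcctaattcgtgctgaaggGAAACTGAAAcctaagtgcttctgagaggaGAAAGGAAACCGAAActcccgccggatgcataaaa
DDX60L: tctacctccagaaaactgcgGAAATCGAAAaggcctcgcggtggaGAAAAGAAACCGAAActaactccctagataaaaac
EPSTI1: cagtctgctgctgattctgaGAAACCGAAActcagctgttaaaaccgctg
PLSCR1: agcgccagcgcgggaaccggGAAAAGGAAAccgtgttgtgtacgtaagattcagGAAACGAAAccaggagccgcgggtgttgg
In SAMD9, DDX60 and DDX60L a match to the short run overlaps one to the long run, so that GAAA occurs 3 times with gaps of 1 and 2 bases. The long runs nearest to the start site began 53 bases before it in DDX60, 50 in DDX60L, 50 in EPSTI1 and 136 in SAMD9.

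CELF6-OE libraries held 33748328 to 35413404 counts and Control libraries 36422617 to 37920700. CELF6 had FPKM values of 270.1, 295 and 172 in CELF6-OE replicates 1 to 3 and 0 counts in each Control library, and a count of 0 allows up to 3 counts. The plasmid transcript of CELF6 and the chromosomal gene share these reads, and replicate 3 had 61% of the mean of the other two. Control replicates 1 and 3 differed from each other more than any other pair of one group, with a chi-square per degree of freedom of 29.3 over genes against 7.67 to 11.7. Of 13 leukocyte markers 9 had a row of counts, and 3 of those were above the filter on low counts. PTPRC, which marks all leukocytes, had between 0 and 2 counts per library. The summed level of the markers was 3.86 to 5.12 FPKM in CELF6-OE and 3.85 to 4.49 in Control. Most of that sum was CD14, at 3.80 FPKM in CELF6-OE and 3.32 in Control, while ITGAM was a down-regulated DEG at 0.337 against 0.55 FPKM. Of 9 fibroblast and endothelial markers 2 were tested, with PECAM1 a down-regulated DEG on 3 to 5 counts per library in CELF6-OE and 11 to 17 in Control. The epithelial markers KRT8 and KRT18 had means of 1864 and 1862 FPKM in CELF6-OE and 2530 and 2334 in Control, whereas EPCAM was low at 1.03 and 1.34. All 7 epithelial markers had a fitted log2 fold change below 0, with CDH1 at -1.62 and MUC1 at -1.47 called as down-regulated. Their summed level was 5041 to 5794 FPKM in CELF6-OE and 6178 to 7030 in Control, and its part in the results was not tested. In bulk RNA, fewer cells of one kind and less RNA per cell cannot be told apart.

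Of the 10 genes, 6 were down-regulated DEGs in CELF6-OE (1.5-fold or more, with p under 0.01), against 5.91% of all genes tested. They were XAF1, EPSTI1, CMPK2, SAMD9L, SAMD9 and SAMHD1. At a Benjamini-Hochberg adjusted p under 0.05 without a fold change threshold, PLSCR1 and DDX60L were lower as well, which makes 8 of 10 against 11.5% of all genes. DDX60 and EIF2AK2 did not pass either threshold. The fitted log2 fold change was below 0 for all 10, with a median of -0.93, against a median of 0.012 over all genes tested. In CPM, the count relative to the TMM-scaled library total, no CELF6-OE library reached the lowest Control library for 8 of 10 genes, against 20.0% of all genes. DDX60L is among these 8 by a margin near 0, with a log2 CPM of 6.117 in CELF6-OE replicate 3 and 6.119 in Control replicate 3. In FPKM the groups did not overlap for 7 genes.

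**Figure D1:**
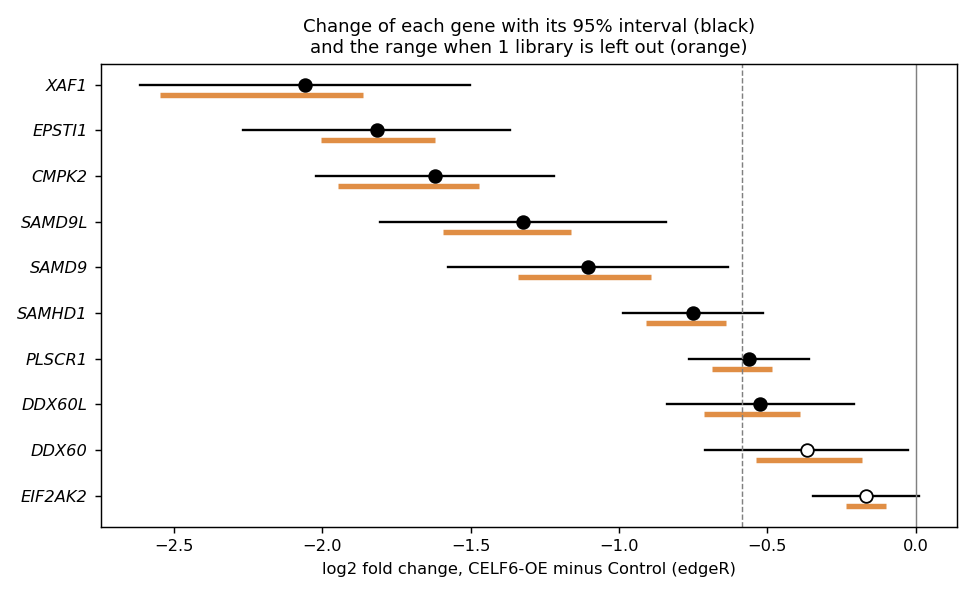
Log2 fold change of each gene (CELF6-OE minus Control, horizontal axis) from edgeR's quasi-likelihood test with its 95% interval in black, and in orange the range of fits that leave out 1 library. Filled points passed an adjusted p of 0.05, and the dashed line marks a 1.5-fold decrease. XAF1 lies at -2.06 and EIF2AK2 at -0.17, with DDX60 and EIF2AK2 as the open points.

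PLSCR1 was the most abundant of the 10 genes, with a mean of 83 ± 5.74 FPKM in Control and 57.3 ± 7.98 in CELF6-OE (SD, n = 3 each). FPKM divides by transcript length, so levels can be set side by side between genes. In Control, CMPK2, SAMHD1, XAF1 and EIF2AK2 followed at 27.6, 27.5, 22.6 and 19.3 FPKM, and each of these overlapped in range with the next. DDX60L stood at 10.6 FPKM, apart from EIF2AK2 above and SAMD9 below. SAMD9, DDX60 and SAMD9L followed at 5.91, 3.97 and 3.05, each overlapping with its neighbour, and EPSTI1 was lowest at 1.59. The order differed in CELF6-OE, where EIF2AK2 was next after PLSCR1 at 17.5 FPKM and SAMHD1 followed at 16.6, with overlapping ranges. CMPK2, DDX60L and XAF1 came after them at 9.14, 7.49 and 5.53 FPKM, each overlapping with its neighbour. EPSTI1 was again lowest, at 0.457.

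**Figure D2:**
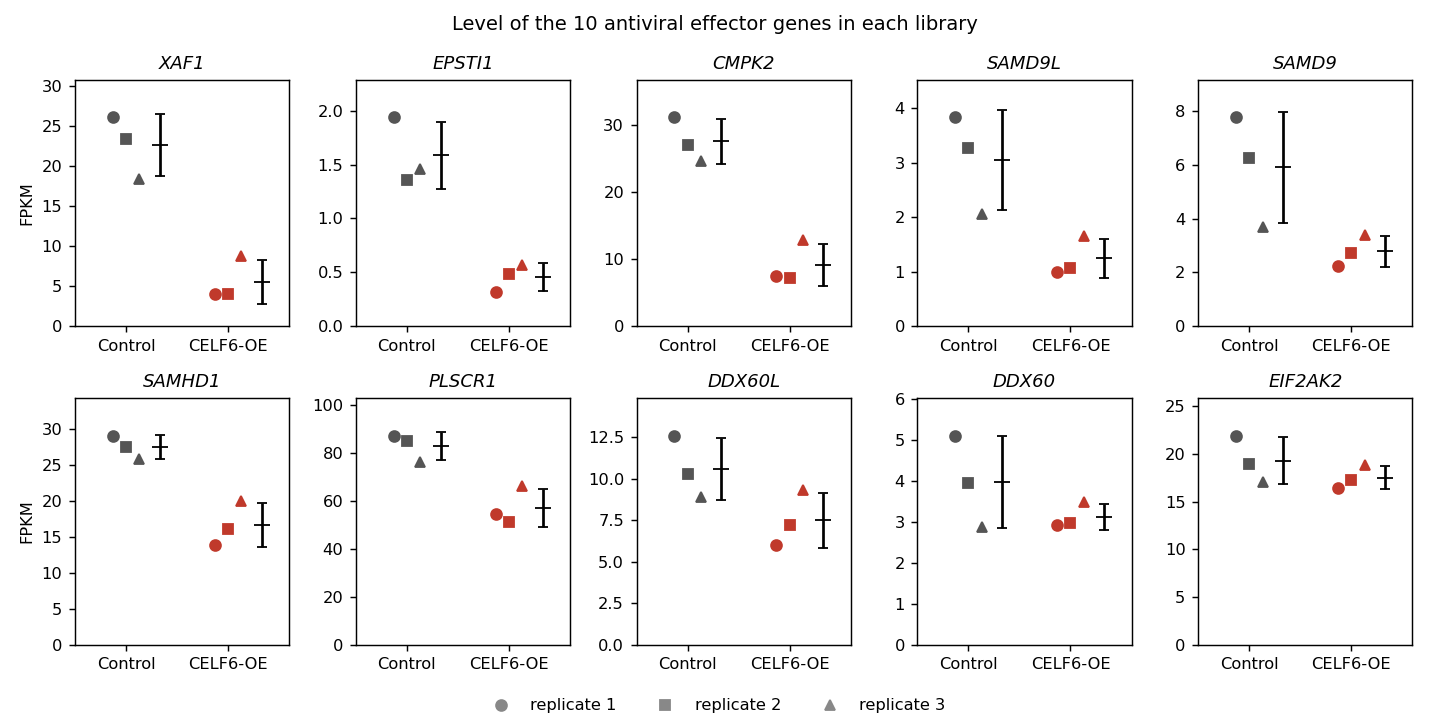
FPKM of each of the 10 genes in the 3 Control (grey) and 3 CELF6-OE (red) libraries, with the mean and SD in black; each panel has its own axis starting at 0. The CELF6-OE points lie below the Control points for 7 genes and overlap with them for DDX60L, DDX60 and EIF2AK2.

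XAF1 fell most. XAF1 (ENSG00000132530, chromosome 17, 6755447 to 6775647, plus strand, 7 exons in the canonical transcript of GENCODE v44 on GRCh38) had FPKM values of 26.1, 23.3 and 18.4 in Control replicates 1 to 3. In CELF6-OE they were 3.95, 3.95 and 8.69. Every CELF6-OE library was below every Control library, and replicate 3 was the highest CELF6-OE library. This gave a log2 fold change of -2.06 (95% interval -2.62 to -1.50), a 4.17-fold decrease, with an adjusted p of 0.000271 in edgeR's quasi-likelihood test. PRAL, annotated on the opposite strand, shares 2535 exon bases with it and averaged 8.8 counts per library. XIAP itself, the partner that gave XAF1 its name, had a log2 fold change of 0.09 with an adjusted p of 0.574. Of 10 inhibitor of apoptosis proteins, caspases and mitochondrial activators, 2 were down-regulated DEGs, BIRC3 at -0.85 and CASP9 at -0.60. CASP9 lay just past the fold change threshold and missed it in 7 of the 17 alternative fits, whereas BIRC3 passed in all 17. BIRC5 (survivin) was higher at 0.33, with an adjusted p of 0.00679 but under the fold change threshold.

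EPSTI1 (ENSG00000133106, chromosome 13, 42886388 to 42992271, minus strand, 11 exons) had 234, 170 and 183 counts in Control and 37, 57 and 64 in CELF6-OE, the fewest reads of the 10 genes. The groups were well separated at this low level, with 1.94, 1.36 and 1.46 FPKM in Control against 0.32, 0.48 and 0.57 in CELF6-OE. The fitted change was -1.82 on the log2 scale (95% interval -2.27 to -1.37), a 3.52-fold decrease, with an adjusted p of 0.000159. On log2(FPKM + 1) values the change was -0.83, because the added 1 is as large as the level.

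The nucleotide enzymes CMPK2 and SAMHD1 had nearly equal levels in Control and unequal changes. CMPK2 (ENSG00000134326, chromosome 2, 6840570 to 6866635, minus strand, 5 exons) had FPKM values of 31.2, 27 and 24.6 in Control and 7.43, 7.19 and 12.8 in CELF6-OE. All CELF6-OE values lay below all Control values, with replicate 3 the highest of its group. The fitted change was -1.62 on the log2 scale (95% interval -2.02 to -1.22), a 3.08-fold decrease, with an adjusted p of 0.000158. CMPK2 starts next to RSAD2, which encodes the antiviral enzyme viperin and runs the other way. The annotated genes overlap and share 351 exon bases, so without a stated strand setting of the counting, reads there could go to either gene. RSAD2 fell from 9.32 FPKM in Control to 2.19 in CELF6-OE, by 2.12 on the log2 scale (adjusted p of 5.47e-05).

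SAMHD1 (ENSG00000101347, chromosome 20, 36890229 to 36951893, minus strand, 16 exons) had FPKM values of 29.1, 27.6 and 25.8 in Control. They were 13.8, 16.1 and 19.9 in CELF6-OE, below every Control library. Its log2 fold change was -0.75 (95% interval -0.99 to -0.52), a 1.69-fold decrease with an adjusted p of 0.000758, and SAMHD1 was the DEG nearest to the fold change threshold. Exons of TLDC2, on the other strand, overlap it by 1068 bases and had a mean of 1.7 counts.

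Around these enzymes stand 20 genes of deoxynucleotide and pyrimidine metabolism. Their median log2 fold change was 0.036, 12 had a fitted value above 0, and 3 were higher at an adjusted p under 0.05, the ribonucleotide reductase subunits RRM2 at 0.25 and RRM1 at 0.28 and the thymidylate kinase DTYMK at 0.29. With edgeR, 0 of the 20 passed the DEG threshold in either direction, and at an unadjusted p under 0.05 there were 4 higher and 0 lower genes. The 17 alternative fits gave 0 down-regulated and 0 to 1 up-regulated DEGs. CMPK1, the cytosolic counterpart of CMPK2, had 18.6 FPKM in CELF6-OE and 15.2 in Control, with an adjusted p of 0.167.

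SAMD9 and SAMD9L lie side by side on chromosome 7, both on the minus strand and 12 kb apart, with no other protein-coding gene between them. SAMD9 (ENSG00000205413, 93099513 to 93118023) has 3 exons, of which the longest, with 6588 bases, makes up most of the transcript. SAMD9L (ENSG00000177409, 93130056 to 93148385) has 5 exons and a longest exon of 5936 bases. Their canonical transcripts shared 2 of 6776 windows of 31 bases and 0 of 6732 windows of 75 bases, counted as exact matches. Per the methods, the alignment allowed mismatches, and how many reads could go to either paralog was not tested.

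SAMD9 had FPKM values of 7.78, 6.26 and 3.69 in Control and 2.25, 2.73 and 3.39 in CELF6-OE. The groups did not overlap, but Control replicate 3 stood close to CELF6-OE replicate 3. SAMD9L had 3.83, 3.26 and 2.05 in Control and 1.0, 1.06 and 1.66 in CELF6-OE, with the same 2 libraries nearest to each other. The log2 fold change was -1.11 for SAMD9 (95% interval -1.58 to -0.63, adjusted p of 0.00508) and -1.32 for SAMD9L (-1.81 to -0.84, adjusted p of 0.00199). These are decreases of 2.15-fold and 2.5-fold. Without Control replicate 3 they were -1.34 and -1.53.

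DDX60 and DDX60L are neighbours on chromosome 4, both on the minus strand and 37851 bases apart. DDX60 (ENSG00000137628, 168216291 to 168318883) and DDX60L (ENSG00000181381, 168356735 to 168537786) have 38 exons each. Their transcripts are more alike than those of the SAMD9 pair, with 84 of 5985 windows of 31 bases and 10 of 5941 windows of 75 bases in common, and 0 of 5866 windows of 150 bases.

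DDX60L had FPKM values of 12.6, 10.3 and 8.90 in Control and 6.0, 7.18 and 9.30 in CELF6-OE. CELF6-OE replicate 3 was above Control replicate 3 in FPKM, so the groups overlapped on this scale. In CPM after TMM scaling these 2 libraries were nearly equal, at 6.117 and 6.119 on the log2 scale, and the groups only just did not overlap. The log2 fold change was -0.52 (95% interval -0.84 to -0.21), with an adjusted p of 0.0283 that rose to 0.112 without CELF6-OE replicate 1, to 0.111 without CELF6-OE replicate 2 and to 0.079 without Control replicate 2. It reached the DEG threshold without CELF6-OE replicate 3, at -0.71, and without Control replicate 3, at -0.62. DDX60 had 5.1, 3.94 and 2.87 FPKM in Control and 2.92, 2.96 and 3.49 in CELF6-OE. Control replicate 3 was the lowest of all 6 libraries in FPKM. In CPM after TMM scaling only CELF6-OE replicate 3 was above it, so the groups overlapped on both scales. The log2 fold change was -0.37 (95% interval -0.71 to -0.03) with an adjusted p of 0.126, and without Control replicate 3 it was -0.54 with an adjusted p of 0.00311.

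SAMD9 was above SAMD9L, and DDX60 below DDX60L, in each of the 6 libraries. The ratio of SAMD9 to SAMD9L in FPKM was 2.03, 1.92 and 1.80 in Control and 2.25, 2.58 and 2.04 in CELF6-OE. All CELF6-OE ratios lay above all Control ratios, by a mean of 0.25 on the log2 scale, with SDs of 0.17 and 0.087 (two-sided exact permutation test, p = 0.1, which is the smallest p that 3 libraries against 3 allow, and 0.2 when adjusted over the 2 pairs). The ratio of DDX60 to DDX60L was 0.405, 0.384 and 0.323 in Control and 0.487, 0.412 and 0.375 in CELF6-OE. These overlapped, with a mean difference of 0.20 on the log2 scale (two-sided exact permutation test, p = 0.4, adjusted p = 0.4). A difference between the changes of 2 paralogs was thus not established for either pair.

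**Figure D3:**
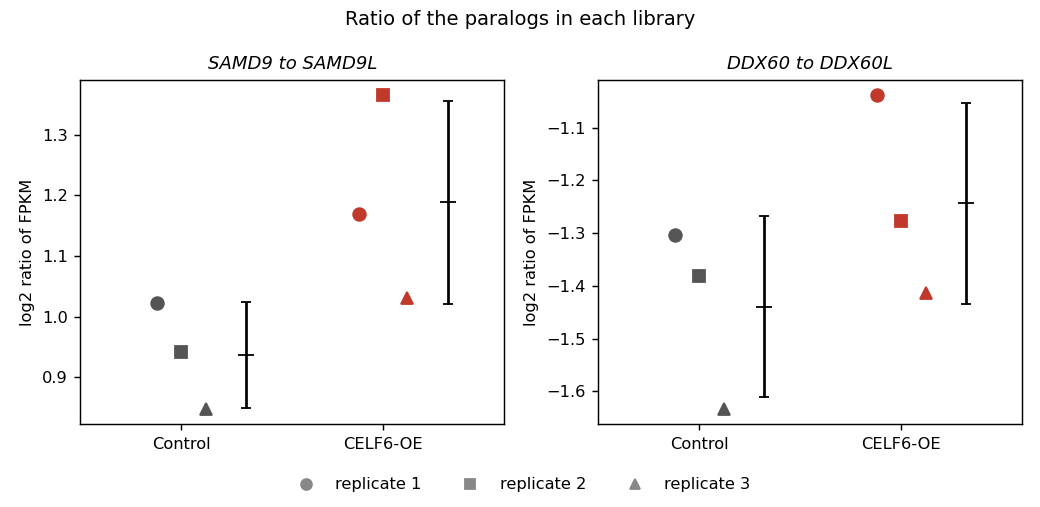
Log2 ratio of FPKM between the paralogs in each library (vertical axis), SAMD9 to SAMD9L on the left and DDX60 to DDX60L on the right, for Control (grey) and CELF6-OE (red), with the mean and SD in black; the axes do not start at 0. The ratios of the first pair do not overlap between groups, with group means of 0.94 and 1.19, and those of the second pair do, with -1.44 and -1.24.

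Beside DDX60 and DDX60L stand 14 other DExD/H-box helicases and SKI complex genes. The 3 RIG-I-like receptors, which detect viral RNA in the cytosol, were down-regulated DEGs: DHX58 at -2.45, DDX58 (RIG-I) at -1.09 and IFIH1 (MDA5) at -1.27. DHX9 and DHX15 were higher at 0.30 and 0.29 with an adjusted p of 0.0154 and 0.0347, under the fold change threshold. The median of the 14 was 0.071. SKIV2L, the SKI2 helicase itself, had a log2 fold change of -0.11 with an adjusted p of 0.366.

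EIF2AK2 (ENSG00000055332, chromosome 2, 37099210 to 37157522, minus strand, 17 exons) had FPKM values of 21.9, 19 and 17 in Control and 16.4, 17.2 and 18.8 in CELF6-OE. Control replicate 3 lay below CELF6-OE replicates 2 and 3 in FPKM. In CPM after TMM scaling it lay below CELF6-OE replicate 3 alone, so the groups overlapped on both scales. Counts ranged from 6128 to 8525 per library. The log2 fold change was -0.17 (95% interval -0.35 to 0.0088), with an adjusted p of 0.172, and the interval reaches no further than a 1.27-fold decrease. Without Control replicate 3 the change was -0.23 with an adjusted p of 0.0375. Other genes of the pathway, 13 in all, include the remaining eIF2-alpha kinases (EIF2AK1, EIF2AK3, EIF2AK4), the eIF2 subunits and the downstream factors ATF4 and DDIT3. Their median was 0.040, and EIF2S3, at 0.21 with an adjusted p of 0.03, was the 1 gene past that threshold. With edgeR 0 of the 13 were DEGs, 1 was lower and 2 higher at an unadjusted p under 0.05, and the 17 alternative fits, DESeq2 and limma among them, gave 0 DEGs.

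PLSCR1 (ENSG00000188313, chromosome 3, 146515180 to 146544856, minus strand, 9 exons) had FPKM values of 87.3, 85.2 and 76.5 in Control and 54.5, 51.1 and 66.3 in CELF6-OE. The groups did not overlap. The log2 fold change was -0.56 (95% interval -0.77 to -0.36), a 1.48-fold decrease just under the threshold of 1.5, with an adjusted p of 0.00183. It was -0.69 without CELF6-OE replicate 3 and -0.60 without Control replicate 3, past the DEG threshold in both. Of 6 other scramblase genes 4 had a row of counts, and 3 of those were above the filter. PLSCR4, XKR8 and ANO6 had log2 fold changes of -0.59, -0.23 and 0.12 with adjusted p of 0.0817, 0.169 and 0.324. With edgeR 0 of the 3 were DEGs, 1 was lower at an unadjusted p under 0.05, and the alternative fits gave 0 to 1.

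The libraries within a group differed in the same way for most of the 10 genes. CELF6-OE replicate 3 had the highest FPKM of its group for 10 of 10 genes, Control replicate 1 the highest for 10 of 10, and Control replicate 3 the lowest for 9 of 10, with EPSTI1 as the exception. The median of the 10 genes, in log2 CPM relative to each gene's Control mean, was -1.17, -0.95 and -0.63 in CELF6-OE replicates 1 to 3. It was 0.20, 0.025 and -0.17 in Control replicates 1 to 3. CELF6-OE replicate 3, with the least CELF6, had the smallest median decrease, and replicate 2, with the most CELF6, had a smaller one than replicate 1. Between these, XAF1, CMPK2, PLSCR1 and DDX60 were lower in replicate 2 in log2 CPM. SAMD9, SAMD9L, DDX60L, EPSTI1, EIF2AK2 and SAMHD1 were lower in replicate 1. A relation to the CELF6 level was not tested. In CPM, Control replicate 1 was the highest and replicate 3 the lowest for 8 of the 10 and for 30.7% of all genes tested. CELF6-OE replicate 3 was the highest of its group in CPM for all 10 and for 32.5% of all genes tested. SAMD9 varied most within Control, where replicate 3 had 50.1% of the CPM of replicate 1, and 5.17% of all genes had a larger ratio of the highest to the lowest Control library. SAMD9L and DDX60 followed at 56.6% and 59.6%. SAMHD1 and PLSCR1 varied least, at 94% and 92.7%. In CELF6-OE the largest ratio of the highest to the lowest library was 2.23 for XAF1, against a median of 1.14 over all genes.

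**Figure D4:**
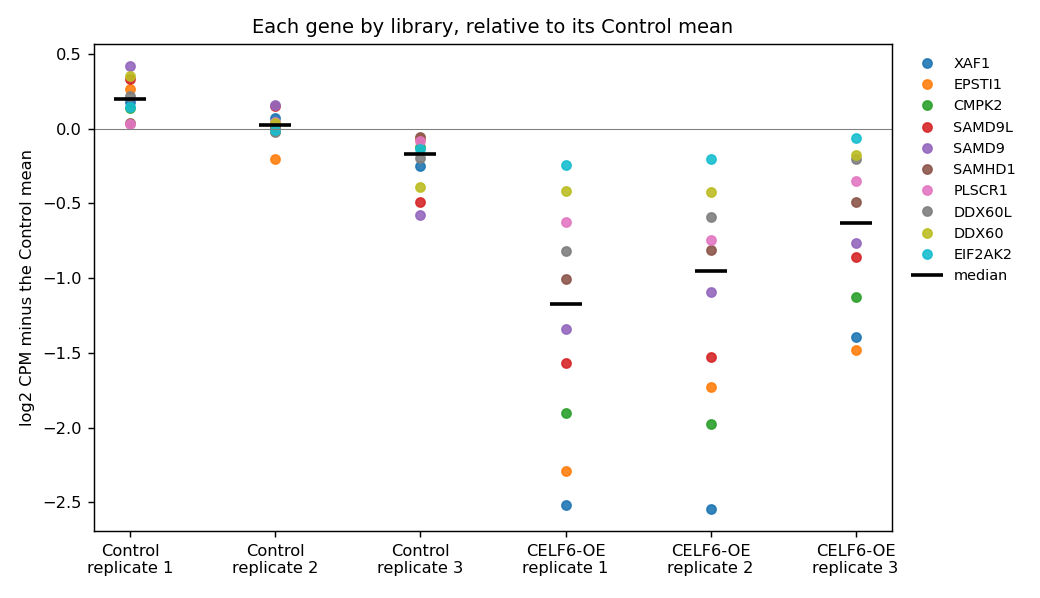
Log2 CPM of each gene minus its mean in Control (vertical axis) in the 6 libraries, with the median of the 10 genes as a black bar. The medians in CELF6-OE lie between -1.17 and -0.63, and those in Control between -0.17 and 0.20.

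Upstream of the 10 effectors, of 19 ligands, receptors and signalling genes 18 were tested, and 9 were down-regulated DEGs, with a median log2 fold change of -0.54. IFNL1 fell by 3.17, IFNL2 by 3.12 and IFNB1 by 3.08 on the log2 scale, and the transcription factor IRF1 by 1.09. IFNL2 has a near-identical copy, IFNL3, at -3.15 (adjusted p of 4.455e-05). Reads with a unique location were used, so reads that match both copies would be left out. Of the receptor chains, IFNGR1 was a down-regulated DEG at -0.59, and IL10RB, IFNGR2 and IFNAR2 were lower at -0.40, -0.29 and -0.28 with adjusted p of 0.00617, 0.0143 and 0.027, under the fold change threshold. IFNLR1, at -0.38, and IFNAR1, at 0.10, did not pass the test (adjusted p of 0.109 and 0.43), nor did the kinase JAK1 at 0.08 (adjusted p of 0.387). IRF9 was removed by the filter on low counts, with 0 to 2 counts per library. Whether that reflects its RNA level or the counting, whose settings are not given, was not tested. Of 32 other interferon-stimulated effectors, 28 were down-regulated DEGs and the median was -1.46, with ISG20 at -2.03 and OASL at -2.11. These lists were chosen with results known, and the difference from the median of the 10 genes was not tested. Of 10 reference genes, 0 were DEGs with edgeR and in the 17 alternative fits, and the median was 0.071. At an unadjusted p under 0.05, 2 were lower and 2 higher. At an adjusted p under 0.05, 2 were lower and 1 higher, under the fold change threshold. They were PGK1 at -0.39, GUSB at -0.31 and YWHAZ at 0.29, with adjusted p of 0.00268, 0.031 and 0.0101.

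**Figure D5:**
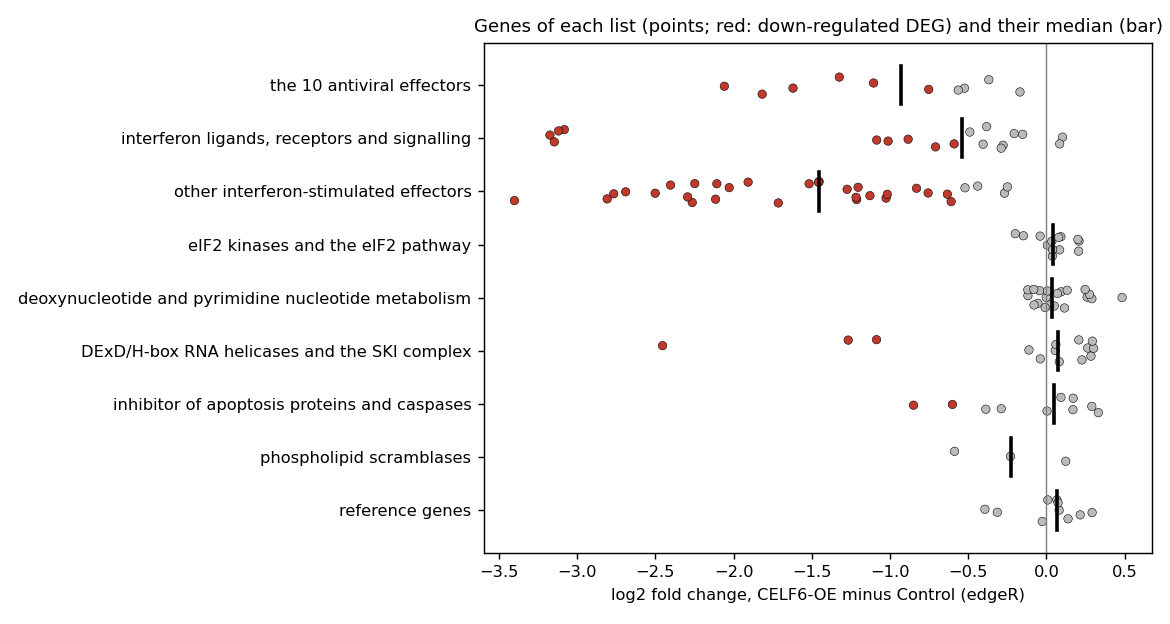
Log2 fold change (CELF6-OE minus Control, horizontal axis) of the tested genes of each list, with down-regulated DEGs in red and a black bar at the median. The medians are -0.93 for the 10 antiviral effectors, -1.46 for other interferon-stimulated effectors and 0.071 for reference genes.

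The genes outside the 10 whose pattern over the 6 libraries was nearest to their median were MAT1A, ERAP1, LAP3, CLEC2B and EHF. The root mean square difference in log2 CPM, after centring on the Control mean, was 0.070 for MAT1A, 0.088 for ERAP1, 0.089 for LAP3, 0.097 for CLEC2B and 0.10 for EHF. ERAP1 and LAP3 encode aminopeptidases, ERAP1 being the one that trims peptides in the endoplasmic reticulum for HLA class I molecules. LAP3 had 96.4 FPKM in Control and 52.1 in CELF6-OE, whereas MAT1A was barely expressed, at 0.553 and 0.297. These are likenesses of level over 6 libraries in 2 groups and carry no p.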

How the data were processed

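RNA-seq of 3 CELF6-OE and 3 Control libraries was used, grouped by the sample labels. Per the methods, the authors trimmed the reads, aligned them to GRCh38 with TopHat2 from a directional library, and used reads with a unique location. They deposited read counts per gene without normalization and FPKM values rounded to 2 decimals. Which tool and annotation release were used for counting, and with which strand setting, is not given in the sources used here. Coordinates are from GENCODE v44.

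The 15847 genes kept by filterByExpr (minimum count 10) were tested with edgeR 4.0.16 in R 4.3.3 (TMM scaling, quasi-likelihood test, Benjamini-Hochberg adjustment over all genes kept). The study's methods name no filter. The prior degrees of freedom were 7.15 with the filter and infinite without it. DEGs changed 1.5-fold or more with p under 0.01. Standard errors are the log2 fold change over the square root of the F statistic. The depth of 33748328 to 37920700 counts left between 37 and 8525 counts per library for these genes. The edgeR p-values set the difference between the groups against the spread between these libraries, which the fit moderates with information from other genes. No libraries of a group were duplicates (chi-square per degree of freedom of 7.67 to 29.3). Alternatives were other scalings, filters and tests (DESeq2 1.42.0, limma 3.58.1), FPKM values, a replicate block and leaving out each library. Only edgeR's quasi-likelihood test was run on simulated data. Those counts were drawn from a model fitted to these libraries, so the run checks the code and not whether the model holds.

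The named genes are the 10 effectors, CELF6, RSAD2, up to 4 genes with the smallest p of each list with some others named after their values were seen, and the 5 genes nearest in pattern. The genes and lists were chosen with earlier results of these data known. Splicing, RT-qPCR and protein data were not analysed here.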

Additional observations from a re-analysis of the deposited data

How the results depend on the processing

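The number of DEGs among the 10 genes was 6 under each alternative scaling, filter and test and under the replicate block, and 5 at a fold change of at least 2. It was 6 to 8 when 1 library was left out, with 8 without CELF6-OE replicate 3 or Control replicate 3. The number at an adjusted p under 0.05 was 7 to 9 under the former alternatives and 7 to 10 with 1 library left out. DDX60 passed it without the filter at -0.38 (adjusted p of 0.0021), and DDX60L missed it with library size only (0.0641) and on log2(FPKM + 1) and log2(FPKM + 0.1) values (0.0871 and 0.0818); the cause was not tested. The median over the 10 genes was -0.76 on log2(FPKM + 1) values and -0.94 to -0.87 in the others, and -1.09 to -0.81 with 1 library left out. No fitted change reversed its sign. Among the inhibitors of apoptosis and caspases, 1 DEG was called in place of 2 with library size only, upper quartile and both FPKM fits (1 to 2 with 1 library left out; CASP9 was the gene lost, without CELF6-OE replicate 1, Control replicate 2 or Control replicate 3), and among scramblases 1 was called in place of 0 without the filter and in edgeR's likelihood ratio test (0 to 1 with 1 library left out); the cause was not tested.

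Same-numbered libraries of the groups did not deviate together over genes (r of -0.0023, -0.013 and -0.067). These values cannot show whether such libraries were cultured or prepared together, which is not given. The replicate block gave 6 DEGs, with 8 genes at an adjusted p under 0.05 and a median of -0.92. For the paralog ratios the mean difference cannot change under the block, and the exact sign-flip permutation p was 0.25 for both pairs, the smallest that 3 pairs allow. EPSTI1 is limited by depth, at 37 to 234 counts per library.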
